A study of Mus musculus with 4 samples.

Results

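The 32 genes described here mark the path from a committed neuronal progenitor to a young neuron. They are a listed set of 32 of the 31557 gene symbols in a table of single-cell read counts, and all 32 were found by symbol. They were read in sorted wells of the adult mouse dentate gyrus with 500 to 6000 detected genes, which kept 716 of 768 wells. The genes fall into 5 roles, with 6 intermediate progenitor and proneural factors, 6 neuroblast genes, 10 genes of the cytoskeleton, growth cone and membrane, 5 neuronal RNA-binding proteins and 5 factors of granule and other glutamatergic neurons.

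All mice were male and carried nestin-GFP, a reporter driven by regulatory sequence of the stem cell gene nestin, and wells held sorted GFP-positive cells. One group received 2 µl of a miR-132 antagomir (Ant-132, a cholesterol-modified oligonucleotide with locked nucleic acids, at 0.33 nmol/ml) into the ventricle in artificial cerebrospinal fluid. The control group received a scrambled oligonucleotide in the same fluid. Injection was at 2 months and analysis at 3 months of age. The deposited well table names 4 mice per treatment, with 353 kept wells from antagomir mice (mice 2, 4, 6 and 8) and 363 from scrambled mice (mice 1, 3, 5 and 7). The mouse was the replicate throughout.

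In the adult dentate gyrus, radial glia-like (RGL) stem cells divide to give intermediate progenitors, which pass through a neuroblast stage and become granule neurons. The basic helix-loop-helix factor Neurog2 acts early, the T-box factor Eomes (Tbr2) marks intermediate progenitors, and Neurod1 drives granule neuron differentiation. Dcx, a microtubule-binding protein of migrating neuroblasts, and Calb2 (calretinin), a calcium-binding protein of immature granule neurons, follow. Prox1 is a homeobox factor that specifies granule neuron identity, and Rbfox3 encodes NeuN, an RNA-binding protein used as a marker of neurons.

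miR-132 is a microRNA induced by neuronal activity, and the antagomir is meant to bind it. Its mature sequence and that of its neighbour miR-212 are shown because they share the seed, printed in capitals (bases 2 to 8). Both lie on the plus strand of chromosome 11 in GRCm38.p6, miR-132-3p at chr11:75173723-75173744 and miR-212-3p at chr11:75173443-75173464 (RefSeq).
mmu-miR-132-3p: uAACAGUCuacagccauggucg
mmu-miR-212-3p: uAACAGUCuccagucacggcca
Of the 32 members, 5 (15.6%) held a match to this seed of at least 7 bases in their longest annotated 3' UTR, against 3478 of 17511 genes (19.9%) of the count table with a 3' UTR. The matches searched were GACTGTTA, GACTGTT and ACTGTTA. The median 3' UTR was 1460 bases among members and 1260 bases among all these genes. A match of 7 or more bases was found in Dcx (2 matches), Elavl4 (2), Cd24a (1), Neurod2 (1) and Dpysl3 (the member with an 8-base match). The matched bases are in capitals below, with the flanking transcript, for the 4 members other than Dpysl3.
Dcx, from base 2795 of the 3' UTR: cctacctcctGACTGTTcttccccacag
Dcx, from base 4864: tcgtgccactcACTGTTAcgtgaatcct
Elavl4, from base 880: tggattcgtaGACTGTTttttgaaggat
Elavl4, from base 2083: atgtagacagGACTGTTgtttgcacatt
Cd24a, from base 550: gttgaactctGACTGTTctctttggaat
Neurod2, from base 1076: tggaatggcaaACTGTTAgggggggtcg
These members lie in GRCm38 at chrX:143855842-143933311 (Dcx, minus strand), chr4:110203722-110351909 (Elavl4, minus), chr10:43578284-43584265 (Cd24a, plus) and chr11:98325415-98329648 (Neurod2, minus). A match is a description of the sequence and was not shown here to be bound.

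The proneural factors and the NeuroD family bind E-boxes, so promoter sequences were searched for CAGATG and CAGCTG on both strands. Each sequence held the 250 bases upstream of the start and a shorter stretch after it. RefSeq promoters were matched for 22 members. CAGATG was found in 4 of them (18.2%), against 17.2% of 27025 promoters, and CAGCTG also in 4 (18.2%), against 16.1%. In Elavl2, 1 of the 4 with CAGCTG, the motif lay after the start, from base 2. The share among members was thus close to that of all promoters for both motifs. The 4 with CAGATG were Nhlh1, Prox1, Stmn3 and Neurod2. The upstream bases of Nhlh1 and Neurod2 are shown because both are themselves basic helix-loop-helix factors, and are printed in the direction of transcription with the motif in capitals, at chr1:172057597-172057846 and chr11:98329646-98329895, both on the minus strand of GRCm38.p6.
Nhlh1: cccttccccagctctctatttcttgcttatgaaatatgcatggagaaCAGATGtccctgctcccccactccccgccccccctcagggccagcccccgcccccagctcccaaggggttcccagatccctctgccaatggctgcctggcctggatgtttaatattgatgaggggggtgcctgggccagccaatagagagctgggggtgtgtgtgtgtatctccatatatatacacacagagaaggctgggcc
Neurod2: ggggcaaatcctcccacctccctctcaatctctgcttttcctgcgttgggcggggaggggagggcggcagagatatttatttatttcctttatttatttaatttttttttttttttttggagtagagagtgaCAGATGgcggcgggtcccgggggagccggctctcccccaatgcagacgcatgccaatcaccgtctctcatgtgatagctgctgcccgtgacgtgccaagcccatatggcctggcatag
The motif began 203 bases before the start of Nhlh1 and 118 bases before that of Neurod2.

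Kept wells held a median of 650777 counts (4118 to 1640971) and 2778.5 detected genes, and the kept wells of a mouse summed to 43996495 to 69191485 counts. Smart-seq2 counts are reads without molecular identifiers, so a count of 1 is not a molecule, and all intervals and floors cover counting error only. Wells were clustered without the 32 members, and clusters were named from other markers, so the members' detection in a class was not built into it by the clustering. The classes were oligodendrocyte-like (302 wells), RGL or astrocyte-like (190), endothelial-like (87), mural-like (82), neuroblast-like (38), fibroblast-like (12) and oligodendrocyte precursor-like (5). The neuroblast-like class was led by Tubb5, Nnat, Nfib, Dpysl3 and Rtn1, of which Dpysl3 and Rtn1 are members, and 11 of its 13 markers were detected in at least 25% of its wells. In the same wells 6 of 16 RGL or astrocyte markers and 3 of 11 mature neuron markers reached 25%, with summed levels of 0 to 19964 and 0 to 10649 CPM per well. Of 13 oligodendrocyte markers 3 reached 25% (sum 0 to 35877 CPM, median 6.95), and all 4 blood markers were at 0. The part of these other cells' genes in the members' values was not tested. The class held 7, 5, 5 and 4 wells in scrambled mice 1, 3, 5 and 7 and 6, 1, 5 and 5 in antagomir mice 2, 4, 6 and 8. When the 32 members were added to the clustering, 25 of the 38 stayed in a neuroblast-like cluster and 13 moved to a cluster with RGL or astrocyte markers. One well of mouse 8, with 615 detected genes and 1915 counts of Gfap, the astrocyte filament gene, held none of the 32 members.

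More members were detected in most neuroblast-like wells than in wells of the other classes. A neuroblast-like well held counts of a median of 20 members (0 to 24), against 4 (0 to 9) in oligodendrocyte-like, 2 (0 to 9) in RGL or astrocyte-like, 7 (7 to 9) in oligodendrocyte precursor-like, 1 (0 to 3) in endothelial-like and 0 (0 to 3) in mural-like wells. Per mouse the mean was 18.03 ± 2.68 members per neuroblast-like well and 4.01 ± 0.149 per oligodendrocyte-like well (SD, n = 8 mice). Of 669 detections of members in neuroblast-like wells, 77 were of proneural factors, 127 of neuroblast genes, 273 of cytoskeletal, growth cone and membrane genes, 124 of RNA-binding proteins and 68 of granule and glutamatergic factors. Of 1742 detections in the 678 other wells, 27, 27, 1080, 348 and 260 were of these roles. At least 3 of the 12 proneural and neuroblast genes were detected in 32 of 38 neuroblast-like wells and in 0 of 678 other wells, and at least 2 in 34 of 38 and in 3 of 678. Median depth differed between classes, at 590843 counts in neuroblast-like and 829783.5 in oligodendrocyte-like wells, so the deeper class held fewer members. Differences between classes are given as descriptions, with no test. Gene models of other genes share exon bases with Neurod1 (Cerkl on the same strand, 7.37% of its exon bases), Eomes, Stmn1, Ncam1, Elavl3, Celf3 and Prox1, and the sources used here do not give the strand setting of the counting, so reads in these stretches cannot be assigned for certain.

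**Figure D1:**
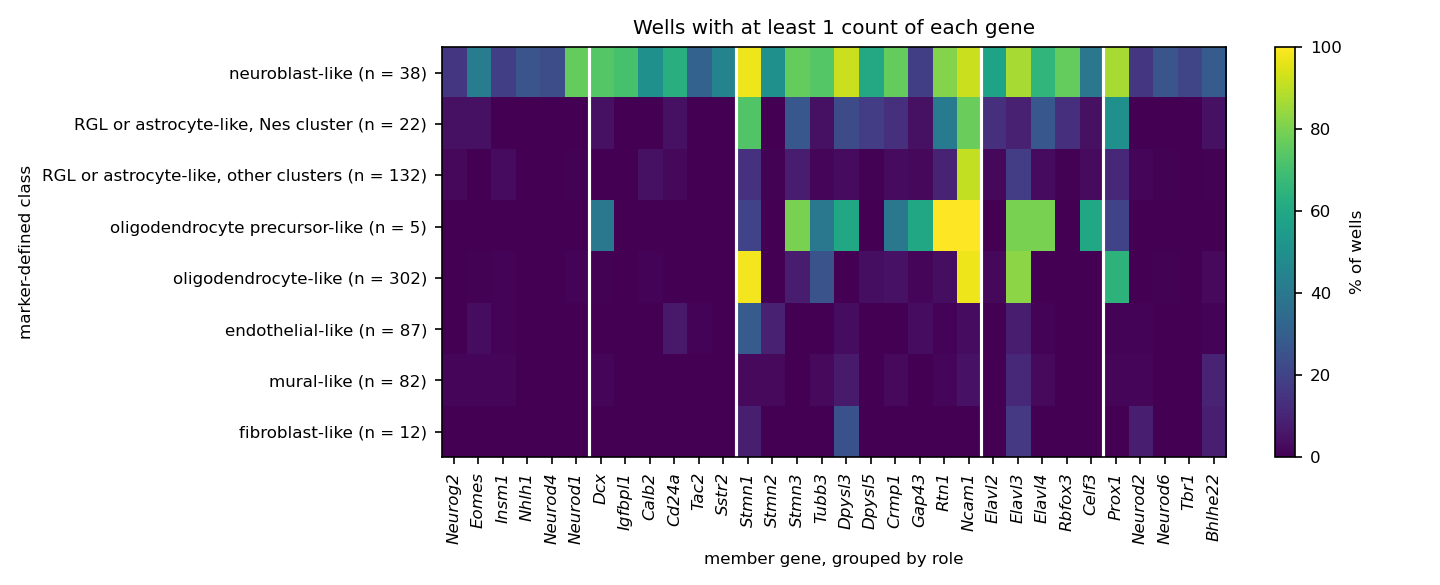
Share of wells with at least 1 count of each member (colour, 0 to 100%), by gene (x axis, white lines part the 5 roles) and marker-defined class (y axis, n wells). The 36 wells of a low-gene RGL or astrocyte-like cluster are not drawn. The first 12 genes are near 0 outside the neuroblast-like class, except Dcx in 2 of 5 oligodendrocyte precursor-like wells, while Stmn1, Ncam1, Elavl3 and Prox1 also reach 98.3%, 97.4%, 82.8% and 64.6% of oligodendrocyte-like wells.

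Among the proneural factors, Neurod1 was the most often detected in neuroblast-like wells, in 29 of 38 (76.3%, Wilson 95% interval 60.8 to 87.0), followed by Eomes in 16 of 38 (42.1%, 27.8 to 57.8). Nhlh1 was detected in 10 wells, Neurod4 (a NeuroD-family factor of early differentiation) in 9, the zinc finger factor Insm1 in 7 and Neurog2 in 6. Neurod1 reached 623 ± 290 CPM (counts scaled to the total of the summed wells) in the neuroblast-like wells of a mouse (SD, n = 7 mice with at least 3 such wells), Neurod4 76.0 ± 69.4, Eomes 65.2 ± 65.4 and Insm1 6.15 ± 6.43. Neurod4 was found in no other class, and 99.97% of all Neurod1 counts lay in neuroblast-like wells. Outside the class these 6 factors gave 27 detections, of which 25 had under 10 counts. Eomes, for example, was detected in 7 other wells and at 10 counts or more in none of them.

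All 6 neuroblast genes were concentrated in the same class. Dcx was detected in 28 of 38 wells (73.7%), Igfbpl1 (an insulin-like growth factor binding protein-like gene of neuroblasts) in 27, the surface glycoprotein gene Cd24a in 24, Calb2 in 19, the somatostatin receptor gene Sstr2 in 17 and the tachykinin gene Tac2 in 12. Igfbpl1 and Sstr2 had a count in 0 of the other 678 wells, which allows a share of up to 0.442% of wells with reads and does not limit cells that express the gene. Levels in neuroblast-like wells were 366 ± 106 CPM for Dcx, 597 ± 294 for Igfbpl1, 706 ± 240 for Cd24a and 273 ± 106 for Sstr2 (SD, n = 7). Tac2 had the widest spread, at 1183 ± 1776 CPM, and came from 4 of the 8 mice. Where it was detected it ranged from 63.7 to 11794 CPM per well.

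Some of these genes were also found, at 10 counts or more, in wells of other classes. Dcx reached 10 counts in 3 wells outside the class, 2 of them among the 5 oligodendrocyte precursor-like wells, and Calb2 in 7. Cd24a was at 10 counts or more in 6 of 87 endothelial-like wells, from 2 mice, with 118 to 598 counts. Stmn2, a growth cone stathmin, was at 10 counts or more in 8 endothelial-like wells from 6 mice (4 wells of each treatment), with a median of 540.5 counts (13 to 891). In these 8 wells at least 8 of the 10 endothelial markers also reached 10 counts, none held Dcx, and no more than 2 other members reached 10 counts. In 4 of them Stmn2 and Cd24a were found together.

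The cytoskeletal, growth cone and membrane genes were the most often detected members, and the least selective. In neuroblast-like wells Stmn1 (stathmin, a tubulin-binding protein) was detected in 37 of 38 wells, Dpysl3 and the cell adhesion gene Ncam1 in 35 each, the reticulon gene Rtn1 in 31, Stmn3 and Crmp1 in 29 each, Tubb3 (a neuronal beta-tubulin) in 28, Dpysl5 in 23 and Stmn2 in 19. Dpysl3, Dpysl5 and Crmp1 encode collapsin response mediator proteins, which act in axon growth. Gap43, a growth cone protein, was detected in 7 wells only. Outside the class Stmn1 was detected in 297 of 302 oligodendrocyte-like wells at 470 ± 83.2 CPM per mouse (SD, n = 8), against 1015 ± 263 CPM in neuroblast-like wells. Ncam1 was higher in oligodendrocyte-like wells (821 ± 191 CPM) than in neuroblast-like wells (513 ± 214 CPM). Tubb3 was detected in 77 oligodendrocyte-like wells (25.5%). As a result 9.27% of the wells with Stmn1 and 7.17% of those with Ncam1 were neuroblast-like, against 82.4% of those with Dcx.

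The 5 RNA-binding proteins divided in the same way. Elavl3 was detected in 33 neuroblast-like wells but also in 250 of 302 oligodendrocyte-like wells, with 168 ± 69.5 CPM in the former and 179 ± 39.1 CPM in the latter. Thinned to 200000 counts per well, Elavl3 was detected in 71.4% of 35 neuroblast-like and 79.8% of 297 oligodendrocyte-like wells. Elavl2, Elavl4 and Celf3 were found in 22, 25 and 15 neuroblast-like wells. Rbfox3 was detected in 29 neuroblast-like wells (230 ± 102 CPM) and in 5 of the 678 others. Elavl2, Elavl3 and Elavl4 encode the neuronal ELAV proteins, which bind AU-rich RNA.

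Prox1 stood apart from the other granule and glutamatergic factors. It was detected in 33 of 38 neuroblast-like wells at 692 ± 332 CPM (SD, n = 7), in 195 of 302 oligodendrocyte-like wells at 151 ± 45.8 CPM (n = 8) and in 11 of 22 wells of an RGL or astrocyte-like cluster, called the Nes cluster because it had the highest share of wells with Nes. Bhlhe22, Neurod6, Tbr1 and Neurod2, factors of glutamatergic neurons, were detected in 11, 10, 8 and 6 neuroblast-like wells. Of a list of 45 companion genes of neurogenesis, C1ql2, C1ql3, Calb1, Nrgn and Nefm had no count in the class and are named after their values were seen. The 5 companions detected in most of its wells were Nnat (38 of 38), Zbtb20 (37), Map2 (36), Sox11 (35) and Marcksl1 (34). Nnat, Sox11 and Marcksl1 are among the markers that named the class, and no companion was left out of the clustering. Their high detection in the class was therefore partly built in.

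The Nes cluster, 22 wells from 7 mice, was led by Slc1a3, Aldoc and Ptprz1. Its wells held a median of 3.5 members (2 to 9). Rtn1 was detected in 9, Stmn3 and Elavl4 in 6 each, Dpysl3 in 5, Dpysl5 in 4 and Rbfox3 in 3 of the 22, while Neurod1, Neurod4, Nhlh1, Igfbpl1, Calb2 and Stmn2 were at 0. In the 5 oligodendrocyte precursor-like wells, all from mice 1 and 2, Rtn1 and Ncam1 were in 5, Stmn3, Elavl3 and Elavl4 in 4 and Gap43, Celf3 and Dpysl3 in 3.

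Compared per kilobase of exon, the highest levels in neuroblast-like wells were those of Tac2 (858 ± 1289 CPM per kb), Tubb3 (684 ± 381), Stmn3 (681 ± 430) and Stmn1 (528 ± 137; SD, n = 7 mice). Calb2 (298 ± 327), Rtn1 (278 ± 117), Cd24a (274 ± 92.9) and Neurod1 (228 ± 106) came next, and Elavl2 (9.55 ± 5.70), Tbr1 (6.14 ± 7.47), Neurod2 (3.63 ± 4.29) and Insm1 (1.98 ± 2.08) were lowest. Neighbours in this order differed by less than the larger of their SDs.

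Eomes and Neurod1 divided the neuroblast-like wells into groups. At 1 count or more, 6 wells (5 mice) held Eomes without Neurod1, 10 wells (6 mice) held both, 19 wells (7 mice) held Neurod1 without Eomes and 3 held neither. Both treatments were found in each of these groups. All 6 wells with Eomes alone, and the 3 with neither, were among those that left the neuroblast-like class when the members were clustered too. The class of the first group thus depends on the clustering. The groups are defined by the 2 genes alone, and an order in time was not measured. Median detected genes were 4153.5, 3497 and 3070 in the first 3 groups, with similar depth (601621.5, 594933.5 and 572684 counts).

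Wells with Eomes alone held a median of 11 members (6 to 18), against 22.5 (16 to 24) with both factors and 20 (10 to 24) with Neurod1 alone. Neurog2 was found in 3 of the 6 wells with Eomes alone, in 2 of 10 with both and in 1 of 19 with Neurod1 alone. Neurod4 was found in 1 of 6, 7 of 10 and 1 of 19 wells, so most of its wells held both factors. Nhlh1 was in 0 of 6, 6 of 10 and 4 of 19. Nes, the stem cell filament gene whose regulatory sequence drives the reporter, was detected in 6 of 6, 8 of 10 and 7 of 19 wells, and the astroglial transporter gene Slc1a3 in 6, 9 and 8.

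Several genes of neuroblasts and growth cones were in few or none of the wells with Eomes alone. Dcx was found in 1 of 6 wells with Eomes alone, 9 of 10 with both and 17 of 19 with Neurod1 alone, and Tubb3 in 1, 10 and 17. Rtn1 followed the same steps (2, 10 and 17 wells). Cd24a (0, 6 and 17), Calb2 (0, 3 and 15), Sstr2 (0, 6 and 11), Tac2 (0, 4 and 8) and Stmn2 (0, 2 and 16) were undetected in the 6 wells with Eomes alone. Calb2 and Stmn2 were each in at most 3 of the 10 wells with both factors. Other genes of these roles were also found in wells with Eomes alone. Igfbpl1 was in 3, 9 and 15 wells of the groups, Crmp1 in 4, 9 and 16, Dpysl5 in 2, 7 and 14 and Gap43 in 1, 2 and 3. Tbr1 was in 0, 2 and 5 wells and Bhlhe22 in 0, 2 and 9.

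Other members did not follow these steps. Rbfox3 was found in 4 of 6 wells with Eomes alone, 8 of 10 with both and 17 of 19 with Neurod1 alone, Elavl4 in 4, 9 and 10, Elavl2 in 4, 9 and 9, and Prox1 in 6, 9 and 18. Counts of Rbfox3 in the 4 wells with Eomes alone were 64, 114, 150 and 173. Stmn1, Dpysl3 and Stmn3 were in 6, 6 and 5 of the 6 wells with Eomes alone. At least 3 of 8 cell cycle markers were detected in 3 of 6, 3 of 10 and 1 of 19 wells.

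**Figure D2:**
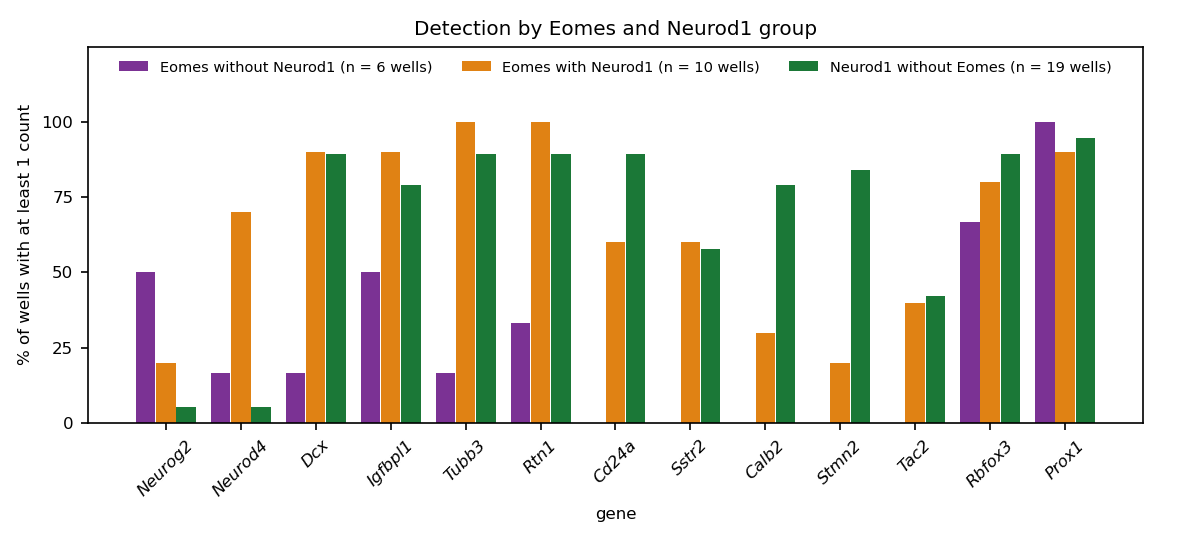
Share of neuroblast-like wells with at least 1 count (y axis, %) of 13 genes (x axis), for wells with Eomes without Neurod1 (6), with both (10) and with Neurod1 without Eomes (19). Neurog2 falls from 3 of 6 to 1 of 19 wells, Neurod4 peaks in wells with both, and Calb2 and Stmn2 are highest with Neurod1 alone.

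With at least 10 counts as the limit, 4 wells with 2 or 3 counts of Eomes moved, and the groups became 6, 6 and 23 wells. Neurog2 was then in 3, 1 and 1 of them, Calb2 in 0, 2 and 16, Stmn2 in 0, 1 and 17, and Dcx in 1, 5 and 20. Neurod4 was in 1 of 6, 3 of 6 and 5 of 23, so its peak in wells with both factors was less marked. Nhlh1 reached 10 counts in 6 wells, all of them with Neurod1 and 3 of them also with Eomes.

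**Figure D3:**
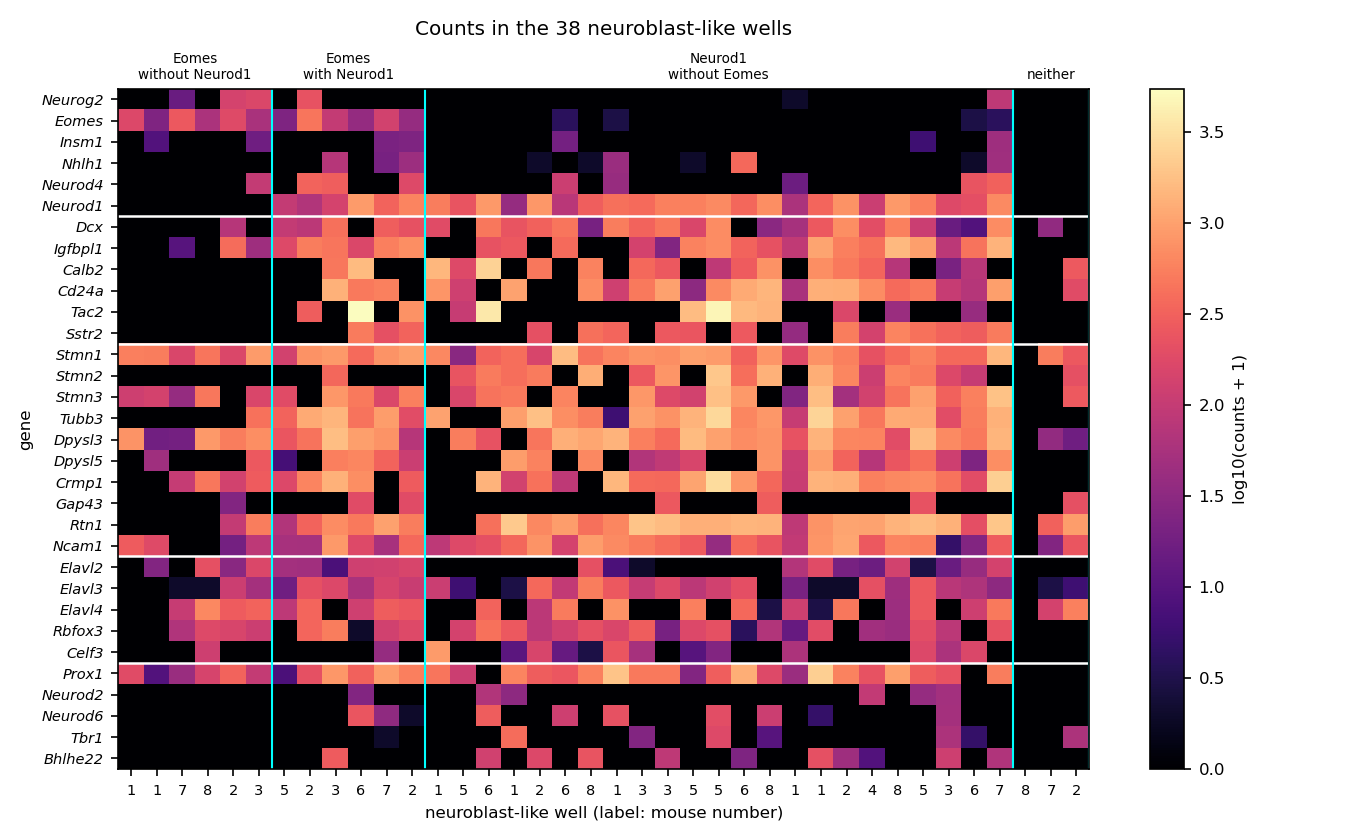
Read counts as log10(counts + 1) (colour) of the 32 members (y axis, white lines part the roles) in each of the 38 neuroblast-like wells (x axis, labelled by mouse), grouped by Eomes and Neurod1 at 10 counts or more. The 6 wells with Eomes alone show none of Calb2, Cd24a, Tac2, Sstr2 and Stmn2, and the 23 wells with Neurod1 alone come from all 8 mice.

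Over all kept wells and at 10 counts or more, 25 of 29 wells with Neurod1 also held Dcx, 26 held Tubb3, 26 held Prox1, 24 held Igfbpl1 and 18 each held Calb2 and Stmn2. All 12 wells with Tac2 and all 17 with Sstr2 held Neurod1. Of the 28 wells with Stmn2, 17 held Calb2, 18 held Neurod1 and 1 held Eomes, and the 8 endothelial-like wells were among those without Neurod1. Within neuroblast-like wells at 1 count or more, the pairs found together most often, as wells with both over wells with either, were Stmn1 with Dpysl3 and with Ncam1 (35 wells, 0.946) and Neurod1 with Tubb3 (27 wells, 0.90). Both members of a pair share the well's depth, so these overlaps are descriptions.

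Levels by treatment were compared on counts summed per mouse over all kept wells, where fewer cells of a type and less RNA per cell cannot be told apart. By edgeR's quasi-likelihood test with Benjamini-Hochberg adjustment, 0 of 15447 genes (0%) passed an adjusted p of 0.05, and so 0 of 31 tested members. At an unadjusted p under 0.05 there were 280 genes (1.81%) and 0 members. DESeq2, the alternative, called 10 genes and no member. Neurog2 did not pass the filter on low counts. Of the 31 tested members 11 were higher and 20 lower in antagomir mice, with a median log2 difference of -0.20, against 0.00 over all genes tested. Without mouse 4, the median of the members was 0.05, with 18 of 32 higher. CPM per mouse did not overlap between treatments in 301 genes (1.95%) and in 0 of the 31 members.

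Eomes had 3.10, 2.51, 0.48 and 5.68 CPM in scrambled mice 1, 3, 5 and 7 and 10.3, 0, 0.93 and 1.04 CPM in antagomir mice 2, 4, 6 and 8. The highest and the lowest value both belonged to antagomir mice. Its log2 difference was 0.04 ± 1.63 (SE), with an unadjusted p of 0.982 and an adjusted p of 1.00 by edgeR. Neurod1 had 22.0, 20.3, 44.5 and 14.4 CPM in scrambled and 34.8, 1.85, 54.7 and 32.9 CPM in antagomir mice, and the groups overlapped widely (log2 difference 0.27 ± 0.77).

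Dcx had 23.4, 19.8, 21.9 and 14.96 CPM in scrambled and 22.4, 3.30, 21.5 and 10.7 CPM in antagomir mice. Mouse 4, with 1 neuroblast-like well, was lowest for Dcx, Neurod1, Eomes, Igfbpl1, Tubb3, Stmn1, Prox1 and Rbfox3. Without it the log2 differences were -0.16 for Dcx, 0.66 for Neurod1, 0.45 for Eomes and 0.18 for Igfbpl1. With all mice the log2 difference of Dcx was -0.49 ± 0.59, with a 95% interval from -1.81 to 0.82. Igfbpl1 had 22.7, 12.1, 50.1 and 28.0 CPM in scrambled and 32.8, 6.92, 34.9 and 30.6 CPM in antagomir mice (-0.13 ± 0.58). Calb2 had 35.9, 18.9, 6.58 and 0.03 CPM in scrambled and 19.8, 6.34, 100.5 and 24.96 CPM in antagomir mice (1.28 ± 1.29). For Calb2, mouse 6 alone was above all others.

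Tubb3, Stmn1 and Prox1 are also found in many wells outside the neuroblast-like class. Tubb3 had 91.2, 88.1, 166.0 and 85.8 CPM in scrambled and 128.0, 63.3, 71.4 and 66.0 CPM in antagomir mice (log2 difference -0.42 ± 0.33). Stmn1 had 226, 379, 282 and 345 CPM in scrambled and 248, 186, 257 and 445 CPM in antagomir mice (-0.13 ± 0.31). Prox1 had 173, 121, 103 and 87.9 CPM in scrambled and 116, 59.9, 141 and 107 CPM in antagomir mice (-0.22 ± 0.31), and Rbfox3 had 10.2, 16.8, 15.7 and 5.98 against 11.3, 0.78, 13.6 and 8.61 CPM (-0.52 ± 0.82). In each of these 4 genes the groups overlapped. Without mouse 4 the log2 differences were -0.31 for Tubb3, 0.04 for Stmn1, -0.02 for Prox1 and -0.14 for Rbfox3.

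**Figure D4:**
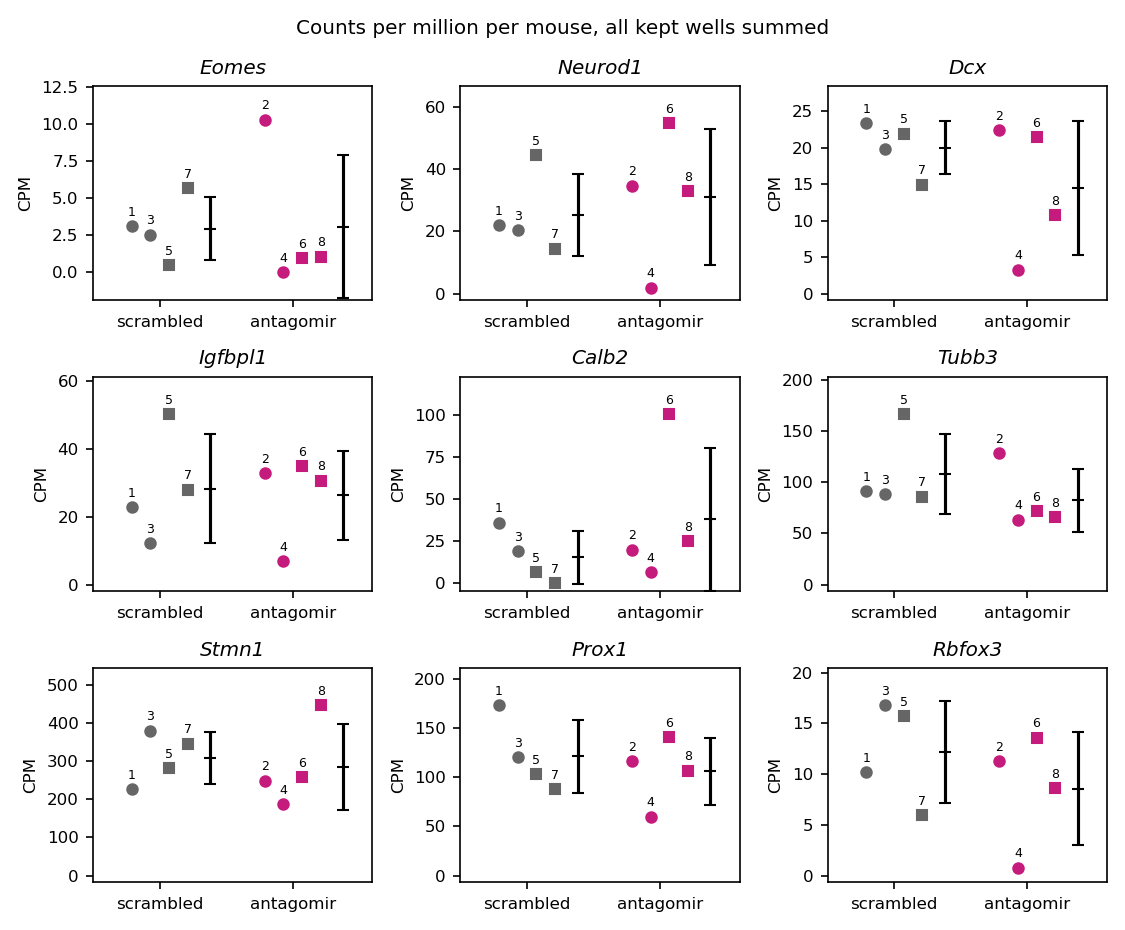
CPM (y axis) of 9 members over all kept wells of each mouse, numbered, with circles for mice of the first sort day and squares for the second. Bars at the right of each treatment are mean ± SD of 4 mice, and the groups overlap in all 9 genes.

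Elavl4 had the smallest p among the members over all wells. It had 15.1, 5.24, 18.5 and 14.97 CPM in scrambled and 35.5, 13.9, 37.3 and 26.8 CPM in antagomir mice, so 3 antagomir mice were above all scrambled mice and mouse 4 lay within their range. The log2 difference was 1.04 ± 0.51 (95% interval -0.09 to 2.18), with an unadjusted p of 0.067 and an adjusted p of 1.00 by edgeR. With sort day and pool as a block the unadjusted p was 0.0239 and the adjusted p 1.00, and over all alternatives the adjusted p ranged from 0.621 to 1.00. Elavl4 is 1 of the 5 members with a seed match. The other 4 had log2 differences of -0.49 (Dcx), -0.24 (Cd24a), -0.29 (Neurod2) and -0.49 (Dpysl3), and none passed the test.

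In RGL or astrocyte-like wells, 12 members passed the filter on low counts. edgeR called 0 of 10742 genes (0%) and 0 of these 12, and DESeq2 called 4 genes and no member. Of the 12, 2 had an unadjusted p under 0.05, against 148 genes (1.38%), and both were RNA-binding proteins higher in antagomir mice. Elavl4 had 1.13, 0, 0 and 0 CPM in scrambled mice and 0, 32.7, 16.9 and 82.5 CPM in antagomir mice 2, 4, 6 and 8, in 1 of 88 and 9 of 102 wells (unadjusted p = 0.0201, adjusted p = 1.00 by edgeR). Celf3 had no count in the 4 scrambled mice and 3.07, 4.73, 5.47 and 2.10 CPM in the antagomir mice, from 233 counts in 5 wells (unadjusted p = 0.001035, adjusted p = 1.00 by edgeR). With no count in the scrambled mice, Celf3 passed the filter on low counts through the antagomir mice only, and Elavl4 mostly through them. Summed over each group as CPM and set against a floor of 3 counts in the scrambled group, Celf3 gave a 67.9-fold ratio. This ratio rests on 5 wells and is not a lower limit for the mice. Celf3 was also the 1 member of 12 whose mice did not overlap, where 229 genes (2.13%) did not. These values and both p-values come after that selection and give no support for a difference. Over the alternatives the adjusted p ranged from 0.402 to 1.00 for both genes by edgeR, DESeq2 and limma. The unadjusted p of Elavl4 was 0.0646 without mouse 8 and 0.0647 with the block of sort day and pool, and that of Celf3 was 0.179 by limma. Among the antagomir mice, mouse 4 gave 43 of the 102 antagomir wells.

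In oligodendrocyte-like wells edgeR called 0 of 10778 genes (0%) and 0 of 9 tested members, with 0 members at an unadjusted p under 0.05 against 214 genes (1.99%), and DESeq2 called 13 genes and no member. CPM per mouse did not overlap in 236 genes (2.19%) and in 0 of the 9 members. Prox1 had a log2 difference of 0.13 ± 0.31 there. A test of whether the treatment difference varied between RGL or astrocyte-like and oligodendrocyte-like wells called 0 of 15882 genes (0%) and 0 of 20 members by edgeR, with 275 genes (1.73%) and 0 members at an unadjusted p under 0.05.

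The neuroblast-like wells were compared over 3 antagomir and 4 scrambled mice, since mouse 4 had 1 such well and was left out. All 32 members passed the filter. edgeR called 0 of 8564 genes (0%) and 0 members, with 203 genes (2.37%) and 0 members at an unadjusted p under 0.05, and DESeq2 called 76 genes and no member. Of the members 17 were higher and 15 lower, with a median log2 difference of 0.04. CPM per mouse did not overlap in 396 genes (4.62%) and in 0 members.

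Within these wells Eomes had 47.8, 57.4, 10.9 and 116 CPM in scrambled mice 1, 3, 5 and 7 and 188, 16.1 and 19.1 CPM in antagomir mice 2, 6 and 8. Neurod1 had 343, 468, 1060 and 295 against 637, 945 and 613 CPM, with a log2 difference of 0.46 ± 0.50. Calb2 had 549, 418, 129 and 0 against 346, 1736 and 461 CPM (1.54 ± 1.42). Tac2, given here because of its spread between mice, was at 0 in 3 scrambled mice and at 3232 CPM in the fourth, and it had 338, 4233 and 474 CPM in the antagomir mice. Tac2 was thus found in 9 of 16 antagomir and 3 of 21 scrambled wells of the 7 mice, the latter all from mouse 5, and its log2 difference was 1.10 ± 2.44 (unadjusted p = 0.66, adjusted p = 1.00 by edgeR). Elavl4 had 223, 120, 440 and 306 against 552, 571 and 222 CPM (0.74 ± 0.62). The groups overlapped in each of these genes.

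**Figure D5:**
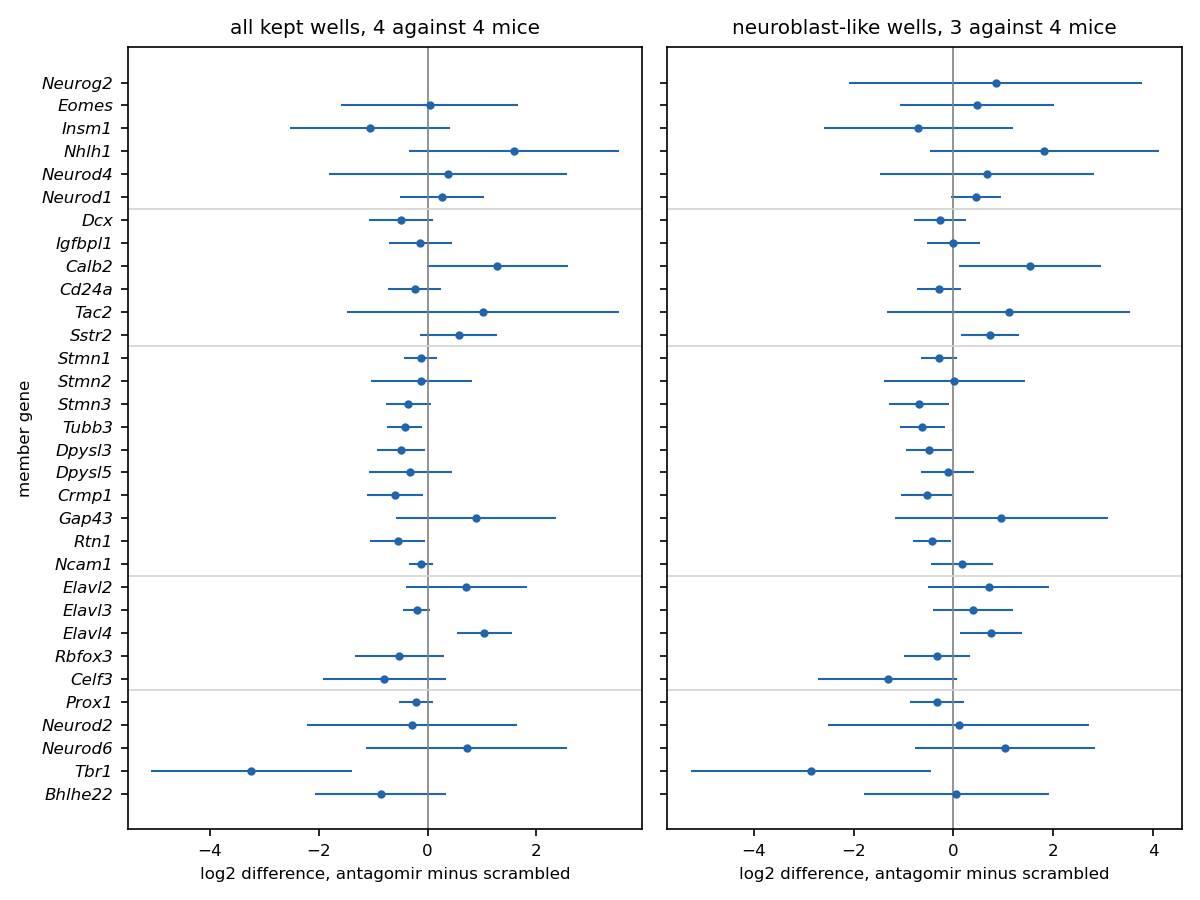
Log2 difference, antagomir minus scrambled (x axis), of each member (y axis, lines part the roles) by edgeR in all kept wells (left, 4 against 4 mice) and in neuroblast-like wells (right, 3 against 4 mice). Points are estimates and bars are 1 SE; no member passed the test, and Neurog2 was not tested over all wells.

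The share of kept wells that were neuroblast-like was 7.53%, 5.43%, 5.49% and 4.60% in scrambled mice 1, 3, 5 and 7 and 6.67%, 1.11%, 5.62% and 5.95% in antagomir mice 2, 4, 6 and 8. The means were 5.76% ± 1.24 and 4.84% ± 2.52 (SD, n = 4 each), and the difference of -0.93 percentage points was within the spread between mice (exact two-sided permutation test, p = 0.686, where 4 against 4 mice cannot go below 0.0286). Without mouse 4 the difference was 0.32 points. Within sort day 1 the difference was -2.59 points and within day 2 it was 0.74 points. Within pool L5 it was -0.37 and within pool L6 -1.48 points, with 2 mice against 2 in each, which cannot go below an exact p of 0.333.

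The tests had limited reach. In simulated data built on these samples, edgeR recovered 39% of genes changed 4-fold over all wells, 43% in oligodendrocyte-like wells and 0% in RGL or astrocyte-like and in neuroblast-like wells. Recovery of 2-fold changes was 3% over all wells and 0% in the other 3 comparisons. The changed genes were drawn from those with a mean over 20 CPM, so recovery at lower levels was not tested. Over all kept wells the mean of the mice was below this limit for Eomes, Rbfox3 and Dcx. It was above it for Neurod1, Igfbpl1, Calb2, Tubb3, Stmn1 and Prox1.

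Outside the range of 500 to 6000 detected genes were 36 wells below it and 16 above. The 36 shallow wells had a median of 966 counts and 0 to 3 members. The 16 wells above the range, with 9848 to 11673 detected genes against at most 5625 in any kept well, were exactly 2 per mouse and lay at the same 2 plate positions in all 8 mice. The labels do not say what these wells held. All 16 had at least 3 markers each of the neuroblast, astrocyte and oligodendrocyte lists at 10 counts or more, and 15 had 3 endothelial markers, whereas 0 of the 38 neuroblast-like wells had 3 oligodendrocyte markers. They held a median of 21.5 members (6 to 28).

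Levels in these 16 wells were fitted alone, as an alternative chosen after the data were seen. edgeR called 0 of 10844 genes (0%) and 0 of 24 tested members, and 244 genes (2.25%) and 2 members, Prox1 and Elavl2, had an unadjusted p under 0.05. Of the 24 members 19 were higher and 5 lower in antagomir mice, with a median log2 difference of 0.49, against 0.01 over all genes tested. CPM per mouse did not overlap in 250 genes (2.31%) and in 2 of the 24 members, again Prox1 and Elavl2. Prox1 had 72.7, 107, 86.5 and 46.7 CPM in scrambled mice 1, 3, 5 and 7 and 136, 160, 149 and 118 CPM in antagomir mice 2, 4, 6 and 8. Its log2 difference was 0.80 ± 0.31 (unadjusted p = 0.0243, adjusted p = 1.00 by edgeR), while in the kept wells the groups overlapped. Elavl2 had 3.36, 0, 0 and 3.37 CPM in scrambled and 26.5, 10.9, 23.3 and 32.03 CPM in antagomir mice (3.70 ± 1.30, unadjusted p = 0.0147, adjusted p = 1.00). At 0 or near it in the scrambled mice, Elavl2 passed the filter on low counts through the antagomir mice. Its p-value and its lack of overlap come after that selection and give no support for a difference.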

How the data were processed

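The authors deposited raw read counts per gene symbol and well from Smart-seq2 libraries, per the file headers. A deposited table gives each well's treatment, mouse, sort day and project. The L5 or L6 in the project name is called the pool here, and the header does not say what it stands for. STAR 2.5.2, Subread, featureCounts 1.5.1, FastQC, Seurat 2.3.1 and the build mm10 are named in the submitters' processing notes; the sources used here give no annotation release, strand setting or role of each tool. The labels list 2 numbered samples per treatment that could not be tied to the 4 mice per treatment of the well table, so mice were grouped by that table.

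Wells with 500 to 6000 detected genes were kept. They were clustered without the 32 members in scanpy 1.11.5 (2000 variable genes, 20 components, 15 neighbours, Leiden resolution 1). Classes were named where at least 3 fixed markers were found. No doublet caller was run. Counts were summed per mouse (at least 10 wells of a class, 3 for neuroblast-like) and tested in R 4.3.3 with edgeR 4.0.16 (filterByExpr, TMM, quasi-likelihood test, Benjamini-Hochberg adjustment over all genes). DESeq2 1.42.0 and limma 3.58.1 were alternatives, with other filters, covariates, detection at 10 counts, thinning to 200000 counts and leaving out each mouse. Shares have Wilson intervals (95%) from statsmodels 0.14.6. The fits were tested on simulated data. Mature microRNAs and promoters came from RefSeq tables. Named genes were the 32 members, with values per mouse for 9 of them and for members at an unadjusted p under 0.05, and the 5 most often detected companions; Tac2 was added after its values were seen. Members and lists were chosen with earlier results of these data known.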

Additional observations from a re-analysis of the deposited data

Results flagged for a closer look

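Groups of 4 mice were formed from each member's CPM over all kept wells and from the share of neuroblast-like wells, by treatment. Of these 66 groups, 12 (18.2%) held 1 mouse far from the other 3 by Dixon's criterion. Its rate of about 1 in 20 holds for independent, normally distributed values. These groups share mice and wells and hold many zeros, so the observed share cannot be set against that rate. In 10 of the 12 that mouse was the highest. Most of these genes were read in few wells.

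Among antagomir mice, mouse 2 stood above the rest for Neurog2 (5.76 CPM against 0 to 0.159), Eomes (10.3 against 0 to 1.04), Tubb3 (128 against 63.3 to 71.4) and Tbr1 (0.920 against 0 to 0.156). Mouse 6 stood above the rest for Nhlh1 (8.18 against 0 to 0.664), Tac2 (245 against 0 to 25.5) and Neurod6 (14.8 against 0 to 2.03). Mouse 4, with 1 neuroblast-like well, stood below them for Igfbpl1 (6.92 against 30.6 to 34.9) and Cd24a (11.6 against 39.9 to 44.3).

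Among scrambled mice, mouse 7 was highest for Insm1 (1.58 CPM against 0.143 to 0.257), and mouse 5 for Tac2 (136 against 0 in the other 3) and Tubb3 (166 against 85.8 to 91.2).

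In the 16 wells over 6000 detected genes, which no comparison of kept wells used, Dcx reached 10 counts in 11, Neurod1 in 10 and Eomes in 6. What these wells held was not tested.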

How the results depend on the processing

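No paired analysis was possible because the numbered samples in the labels cannot be tied to mice. A block of sort day and pool, which holds 1 mouse of each treatment, was fitted in its place and called 0 genes by edgeR in the 4 class comparisons. DESeq2 called 10 genes over all wells, 4 in RGL or astrocyte-like, 13 in oligodendrocyte-like and 76 in neuroblast-like wells, and edgeR without the filter on low counts called 9 in neuroblast-like wells; no member was among them, and the cause was not tested. The difference in the neuroblast-like share was 0.90 points by 3 of 5 markers (13 wells), and -1.54 to 0.32 points with 1 mouse left out. Under other settings 15 log2 differences of named genes changed sign and 139 did not, none of them past the threshold. Over all wells Eomes (0.04) was -0.0388 by limma, -0.65 with pool, -0.40 with sort day, -1.21 with the block and -0.0115 without the low-gene cluster, and Neurod1 (0.27) was -0.0640 by limma and -0.13 with the block. In neuroblast-like wells Eomes (0.46) was -0.23 by limma, -0.20 with sort day and -2.31 in wells of both clusterings, Igfbpl1 (0.00) was 0.0238 by DESeq2, 0.0193 without the filter, 0.0896 by limma and 0.0652 with sort day, and Prox1 (-0.33) was 0.0741 with sort day. With 1 mouse left out, over all wells, Eomes ranged from -2.17 to 0.60 (-0.0227 without mouse 3, -0.316 without mouse 5), Neurod1 from -0.12 to 0.70, Igfbpl1 from -0.39 to 0.31 (0.184 without mouse 4), Stmn1 from -0.47 to 0.0406 (without mouse 4) and Prox1 from -0.37 to 0.00136; Dcx (-0.79 to -0.16), Tubb3 (-0.72 to -0.12) and Rbfox3 (-0.81 to -0.14) kept their sign. In neuroblast-like wells Eomes ranged from -1.83 to 1.04, Dcx from -0.55 to 0.00512, Igfbpl1 from -0.26 to 0.52 (0.0765 without mouse 8) and Prox1 from -0.57 to 0.29. The share of neuroblast-like wells with Elavl3 was 65.8% at 10 counts and 71.4% after thinning, against 86.8%.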

Other observations

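Of the 45 companion genes of neurogenesis, edgeR's quasi-likelihood test with Benjamini-Hochberg adjustment called 0 of 38 tested over all kept wells and 0 of 35 in neuroblast-like wells. Over all wells 23 were higher and 15 lower in antagomir mice, with a median log2 difference of 0.16. In neuroblast-like wells 21 were higher and 14 lower, with a median of 0.06. Among the 5 detected in most neuroblast-like wells, Sox11, a factor of early neuronal differentiation, was also in 3.24% of other wells. Zbtb20, a zinc finger factor of hippocampal neurons and glia, was in 81.6% of them. Sox11 is a marker that named the class and Zbtb20 is not, so these shares are not a like comparison.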
